A study of Mus musculus with 21 samples.

Results

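The 10 genes described here encode carriers that move glucose, lactate, phosphate, bicarbonate, sodium, protons and bile acids across kidney tubule membranes. They were chosen by name, from what their proteins are known to do, with earlier results of these data known. They are 10 of the 27179 genes in the count tables: *Slc5a1*, *Slc5a2*, *Slc5a12*, *Slc2a1*, *Slc2a2*, *Slc34a1*, *Slc34a3*, *Slc9a3*, *Slc4a4* and *Slc10a2*. All 10 had counts in every library and passed the filter on low counts, so none is missing from the comparisons. The libraries came from wildtype male C57BL/6J mice, 1 mouse each, and held RNA of cells captured from digested kidney cortex by antibodies to nephrin, a protein of the podocyte slit diaphragm. There were 6 young untreated libraries (4 months), 7 middle-aged saline libraries and 8 middle-aged libraries of mice given MCC950, an inhibitor of the NLRP3 inflammasome, at 10 mg/kg. Saline or MCC950 was injected for 6 weeks from 18 months of age, and these mice were 19.5 months old at the end. The young mice had no injections, so age and injection cannot be told apart in comparisons with them.

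The proximal tubule takes back most of what the glomerulus filters. Sodium-coupled carriers in its brush border pull glucose and phosphate into the cell, the sodium-proton exchanger trades sodium for acid, and the basolateral side passes glucose and bicarbonate on to the blood. Early segments carry the high-capacity glucose carrier and late segments the high-affinity one. Most of these carriers are known from tubule cells and not from podocytes, the cells the capture was made for.

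The libraries held 27375870 to 36827823 counts in young, 45772937 to 84876399 in saline and 35440472 to 58247271 in MCC950 mice. Depth and age thus went together. Mitochondrial genes took 51.5% to 80.4% of the counts in young, 63.0% to 79.2% in saline and 49.9% to 63.7% in MCC950 libraries. The saline and MCC950 ranges of this share barely overlapped, so it went with treatment. Levels are given as CPM, counts scaled to the size of each library by the TMM method, and differences between groups as log2 fold changes. Podocyte markers were present, with none of 15 at 0 in every library, but their summed level was 949 to 1989 CPM in young, 379 to 677 in saline and 493 to 796 in MCC950 libraries. The summed level of 15 proximal tubule markers that are not among the 10 carriers, such as *Kap*, *Acsm2* and *Cyp4b1*, was 1838 to 8015 CPM in young, 2178 to 5011 in saline and 2855 to 9318 in MCC950 libraries. In bulk RNA, fewer cells of a type and less RNA per cell cannot be told apart.

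The carriers are spread over 7 chromosomes (GRCm38). The sodium-glucose carriers *Slc5a1* and *Slc5a2* span chr5:33104219-33162699 and chr7:128265683-128272430, both on the plus strand. The sodium-lactate carrier *Slc5a12* spans chr2:110597299-110649345 on the plus strand, and the glucose carriers *Slc2a1* and *Slc2a2* span chr4:119108745-119137330 and chr3:28697903-28728361, also on the plus strand. The phosphate carrier *Slc34a1* spans chr13:55399622-55414695 on the plus strand and *Slc34a3* spans chr2:25228897-25234270 on the minus strand. *Slc9a3* (chr13:74086255-74169442) and *Slc4a4* (chr5:88793858-89239656) lie on the plus strand, and *Slc10a2* (chr8:5083219-5105287) on the minus strand. Counts were made over exons. In 3 of the 10 genes some exon bases are shared with a gene on the other strand: 597 of 2897 bases of *Slc5a2* with *BC017158*, 545 of 4676 bases of *Slc34a1* with *Pfn3*, and a short stretch of *Slc2a1* with *Gm12868*. The strand setting of the counting is not given in the sources used here, so reads over these bases cannot be assigned to 1 of the genes.

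RefSeq gives a start site region for 8 of the 10 carriers on GRCm38.p6. The starts of these regions are not always the ends of the gene spans given above. The 250 bases before the start lie partly inside the span for *Slc34a1* and *Slc34a3*, and wholly inside it for *Slc9a3* and *Slc4a4*. The 250 bases before each start were searched on both strands for TATAAA, the core letters of the TATA box, whose reverse complement is TTTATA. Of 32851 start site regions of this length, 4063 (12.4%) held it, and of the 9 regions of the 8 carriers 0 did. That says only that these letters are not in this window. The regions of *Slc34a1* and *Slc10a2*, which were higher with MCC950, and of *Slc5a1*, a glucose carrier that did not pass the test, are printed below in lower case. The motif was chosen after the expression values were known.
*Slc34a1*, chr13:55399398-55399647, plus strand: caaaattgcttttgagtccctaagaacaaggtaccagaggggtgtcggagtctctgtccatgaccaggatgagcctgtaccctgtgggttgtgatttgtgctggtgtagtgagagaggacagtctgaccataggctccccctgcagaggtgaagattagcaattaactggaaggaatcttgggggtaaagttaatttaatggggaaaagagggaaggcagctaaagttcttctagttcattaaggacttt
*Slc10a2*, chr8:5105288-5105537, minus strand: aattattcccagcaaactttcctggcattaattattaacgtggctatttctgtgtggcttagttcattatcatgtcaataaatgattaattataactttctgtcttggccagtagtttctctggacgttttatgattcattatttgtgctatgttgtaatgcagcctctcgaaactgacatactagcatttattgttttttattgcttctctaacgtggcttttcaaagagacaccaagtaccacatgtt
*Slc5a1*, chr5:33103969-33104218, plus strand: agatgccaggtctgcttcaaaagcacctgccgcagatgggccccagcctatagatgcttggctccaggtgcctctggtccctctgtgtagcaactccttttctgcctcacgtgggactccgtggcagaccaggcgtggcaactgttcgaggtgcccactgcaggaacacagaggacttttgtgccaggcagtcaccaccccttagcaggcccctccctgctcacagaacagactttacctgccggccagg

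Compared per kb of exon, the sodium-phosphate carrier *Slc34a1* was far above the other 9 genes in every group. Its mean was 227 ± 91.4 CPM per kb in young (SD, n = 6), 183 ± 60.7 in saline (n = 7) and 363 ± 89.3 in MCC950 libraries (n = 8). That was 13.0, 15.3 and 11.0 times the mean of *Slc5a2*, the next gene in each group, and the libraries of both genes did not overlap. *Slc5a2*, *Slc5a12* and *Slc4a4* followed in this order in all 3 groups, with ranges that overlapped between neighbours. The young means of these genes were 17.5 ± 5.51, 13.4 ± 4.45 and 13.0 ± 5.25 CPM per kb (SD, n = 6). *Slc2a1* came next in young and saline libraries, and *Slc5a1*, *Slc2a2* and *Slc34a3* followed with ranges that overlapped each other. The order of the lower genes was another in MCC950 libraries, where *Slc34a3* stood next to *Slc4a4* at 7.86 ± 2.03 CPM per kb and *Slc5a1* below *Slc2a2* at 3.38 ± 1.17 (SD, n = 8). *Slc9a3* was last but 1 and *Slc10a2* last in every group, at 1.47 ± 0.52 and 0.470 ± 0.227 CPM per kb in young libraries (SD, n = 6).

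**Figure D1:**
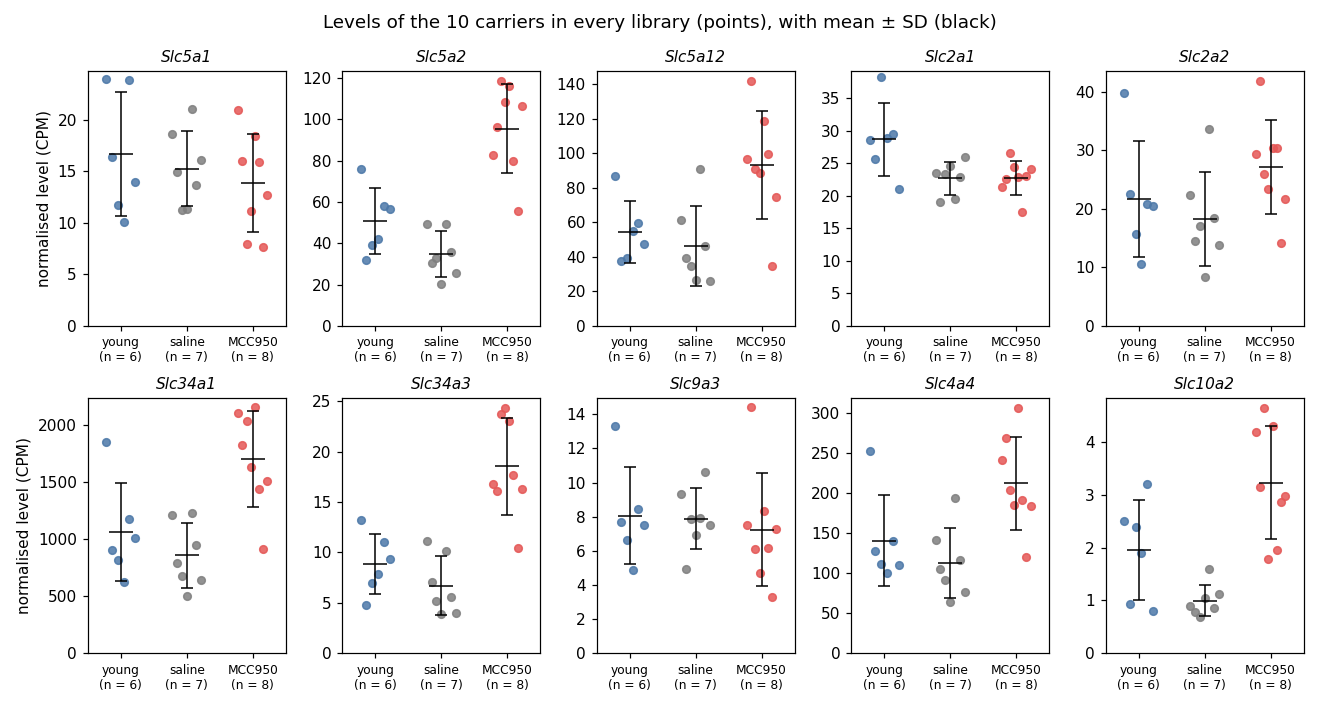
Normalised level in CPM (y axis, linear, from 0) of each of the 10 carriers in the 6 young, 7 saline and 8 MCC950 libraries, with 1 point per mouse and the group mean ± SD in black. All 8 MCC950 points lie above all 7 saline points for *Slc5a2* and *Slc10a2*, while the points of *Slc5a1*, *Slc2a1* and *Slc9a3* span similar heights in both groups.

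The first comparison asked how the carriers stood in middle-aged saline mice against young mice. At an adjusted p under 0.05 (edgeR quasi-likelihood test, Benjamini-Hochberg over 16377 genes) 2 of the 10 carriers were lower, the bile acid carrier *Slc10a2* and the glucose carrier *Slc2a1*, and 0 were higher. Without adjustment 3 had p under 0.05 and were lower and 0 higher, and DESeq2 called 3 lower and 0 higher after adjustment. Of all genes tested, 12.4% were lower and 12.2% higher by this rule. The median log2 fold change of the 10 carriers was -0.31, and that of all genes tested was 0.02. The libraries of both groups overlapped for all 10 carriers, where 4.86% of all genes were lower and 4.51% higher with no overlap.

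*Slc10a2* encodes the apical sodium-bile acid transporter. Its level was 0.794 to 3.20 CPM in young libraries, with a median of 2.14, and 0.684 to 1.59 in saline libraries, with a median of 0.897. These levels rest on as few as 19 counts in a young and 29 in a saline library. The gene was 1.94-fold lower in saline libraries (log2 fold change -0.95, standard error 0.30, edgeR adjusted p = 0.0240). Of the young libraries 4 of 6 lay above every saline library, and the other 2 lay among them. Without young replicate 1, 3 or 5 the call was lost (edgeR adjusted p = 0.0592, 0.0538 and 0.0577).

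*Slc2a1* encodes GLUT1, a glucose carrier of many cell types that is not particular to the tubule. It ranged from 21.1 to 38.2 CPM in young libraries, with a median of 28.7, and from 19.0 to 26.0 in saline libraries, with a median of 23.3. It was 1.26-fold lower in saline libraries (log2 fold change -0.34, standard error 0.11, edgeR adjusted p = 0.0309). Of the young libraries 4 of 6 lay above every saline library. The call was lost without young replicate 3 (edgeR adjusted p = 0.116) or 5 (0.051) or saline replicate 2 (0.0669) or 5 (0.062), and with all libraries thinned to equal depth (0.0745). Podocyte and endothelial markers fell in the same comparison, with 14 of 15 and 7 of 8 genes lower at an adjusted p under 0.05, and the summed endothelial markers were 431 to 770 CPM in young and 233 to 356 in saline libraries. With the podocyte markers as a covariate the log2 fold change of *Slc2a1* was -0.01 (edgeR adjusted p = 0.987), and that of *Slc10a2* was -1.72 (edgeR adjusted p = 0.303). This fit called 6 of 16377 genes tested higher and 0 lower with age, against 1996 and 2038 without the covariate. The podocyte markers changed with age, so this fit cannot tell their part from that of age.

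The other 8 carriers had log2 fold changes between -0.54 and -0.04 with age and did not pass the test. The kidney glucose carrier *Slc5a2* came closest, with 32.1 to 75.8 CPM in young (median 49.3) and 20.01 to 49.5 in saline libraries (median 32.8). Its log2 fold change was -0.54 with a 95% interval of -1.004 to -0.08 (edgeR adjusted p = 0.0755). It passed with DESeq2 (-0.56, adjusted p = 0.0392) and in edgeR with a term for the proximal tubule markers (-0.50, adjusted p = 0.0208) or without young replicate 2 (adjusted p = 0.0367), saline replicate 1 (0.0347) or saline replicate 5 (0.0409). For *Slc34a1* the interval ran from -0.83 to 0.21, for *Slc4a4* from -0.85 to 0.21 and for *Slc9a3* from -0.59 to 0.51. Of the 15 proximal tubule markers 0 were called in edgeR with age, also at an unadjusted p under 0.05, and 0 in DESeq2. In separate lists, 1 of 8 early proximal tubule markers was lower with age and 0 were higher, in edgeR and in DESeq2. Of 5 late ones 0 were called. Of all genes tested in edgeR, 12.4% were lower and 12.2% higher.

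The second comparison asked how MCC950 changed the carriers at 19.5 months. Of the 10 carriers, 6 were higher in MCC950 than in saline libraries and 0 were lower at an adjusted p under 0.05 (edgeR), while 11.9% of all genes tested were higher and 4.86% lower. Without adjustment 7 had p under 0.05 and were higher and 0 lower, and DESeq2 called 6 higher and 0 lower. The higher ones were *Slc5a2*, *Slc5a12*, *Slc34a1*, *Slc34a3*, *Slc4a4* and *Slc10a2*. Their log2 fold changes lay between 0.92 and 1.69. The median over all 10 carriers was 0.95, and that over all genes tested was 0.00. Groups did not overlap for 2 carriers, *Slc5a2* and *Slc10a2*, where 1.15% of all genes were higher and 0.586% lower with no overlap. In the same comparison 9 of 15 proximal tubule markers were higher, 0 were lower and 6 were not called. Among the higher ones were *Pck1* (log2 fold change 1.19), *Lrp2* (0.97) and *Miox* (1.24, the highest of the list). The values of the 15 markers ran from -0.11 to 1.24, with a median of 0.88. Whether more tubule RNA in the fractions took part in the rises of the carriers was not tested beyond the covariate fit given below. MCC950 replicate 7 was the lowest MCC950 library for 8 of the 10 carriers, and its proximal tubule markers, at 2855 CPM, were the lowest of this group.

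The 2 sodium-glucose carriers of the nephron differed. *Slc5a2* encodes SGLT2, which takes up most filtered glucose in the early proximal tubule and is the target of the gliflozin drugs. Its MCC950 libraries held 55.4 to 119 CPM, with a median of 101.5, against 20.01 to 49.5 in saline libraries. The gene was 2.75-fold higher (log2 fold change 1.46, standard error 0.21, edgeR adjusted p = 0.000541), and the lowest MCC950 library, replicate 7, still lay above the highest saline library. *Slc5a1* encodes SGLT1, the carrier of the late proximal tubule and the gut. It held 7.68 to 20.9 CPM in MCC950 libraries, with a median of 14.3, and 11.2 to 21.03 in saline libraries, with a median of 14.9. Its log2 fold change was -0.14 with a 95% interval of -0.61 to 0.33 (edgeR adjusted p = 0.709), and the ranges overlapped.

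The ratio of both genes' counts within a library needs no scaling. *Slc5a1* over *Slc5a2* was 0.341 to 0.630 in saline libraries, with a median of 0.428, and 0.0671 to 0.252 in MCC950 libraries, with a median of 0.148. Every MCC950 library lay below every saline library. The mean ratio on the log scale was 3.19-fold lower with MCC950 (two-sided exact permutation test, p = 0.000311, the least this design can give, and 0.00186 adjusted over 12 ratio tests). Young libraries held 0.241 to 0.510, and MCC950 libraries were 2.31-fold lower than these (exact permutation test, adjusted p = 0.00799). Between saline and young libraries the ratio was 1.38-fold higher, which did not pass (exact permutation test, p = 0.0501, adjusted p = 0.0959) but did without young replicate 2 (log2 difference 0.60, adjusted p = 0.0303).

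**Figure D2:**
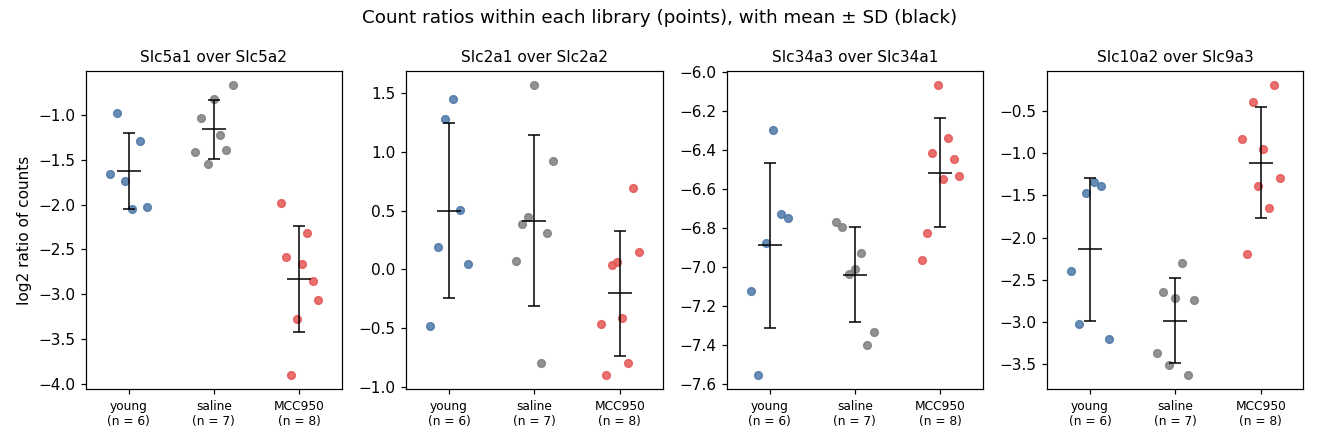
Log2 ratio of raw counts (y axis) of 4 pairs of carriers within each young, saline and MCC950 library, with 1 point per mouse and the group mean ± SD in black. For *Slc5a1* over *Slc5a2* all 8 MCC950 libraries lie below all 7 saline libraries, and for *Slc10a2* over *Slc9a3* they all lie above them.

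Glucose leaves the tubule cell by facilitative carriers, and neither of these passed the test with MCC950. *Slc2a2* encodes GLUT2, on the basolateral side of early proximal tubule cells. It ranged from 14.2 to 41.9 CPM in MCC950 libraries, with a median of 27.6, and from 8.28 to 33.6 in saline libraries, with a median of 17.1. The log2 fold change was 0.57 (standard error 0.27, edgeR adjusted p = 0.154). Saline replicate 5 was the highest saline library, and without it the log2 fold change was 0.79 (edgeR adjusted p = 0.0441). *Slc2a1* stayed at 17.6 to 26.6 CPM, with a median of 22.9 and a log2 fold change of 0.01 (95% interval -0.21 to 0.23). The count ratio of *Slc2a1* over *Slc2a2* did not pass in any of the 3 comparisons (exact permutation test, lowest adjusted p = 0.0973). Without saline replicate 5 it passed with MCC950 against saline (log2 difference -0.82, exact permutation test, adjusted p = 0.0384).

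*Slc5a12* encodes a sodium-coupled lactate carrier of the early proximal tubule brush border. It was 2.01-fold higher with MCC950 (log2 fold change 1.01, standard error 0.28, edgeR adjusted p = 0.0194). Its MCC950 libraries held 34.4 to 142 CPM, with a median of 93.9, and its saline libraries 25.9 to 90.9, with a median of 39.0. Of the 8 MCC950 libraries 5 lay above every saline library, and replicate 7 was the lowest. Saline replicate 5, at 90.9 CPM, lay well above the other saline libraries, which reached 61.3.

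Both phosphate carriers rose. *Slc34a1* encodes NaPi-IIa, the main sodium-phosphate cotransporter of the mouse proximal tubule. It ranged from 911 to 2151 CPM in MCC950 libraries, with a median of 1724, and from 500 to 1230 in saline libraries, with a median of 789. It was 1.98-fold higher (log2 fold change 0.99, standard error 0.23, edgeR adjusted p = 0.00955), and 7 of 8 MCC950 libraries lay above every saline library. *Slc34a3* encodes NaPi-IIc, a less abundant cotransporter of the same brush border. It ranged from 10.5 to 24.3 CPM, with a median of 17.2, against 3.87 to 11.1 with a median of 5.58. It was 2.76-fold higher (log2 fold change 1.47, standard error 0.25, edgeR adjusted p = 0.00136), again with 7 of 8 MCC950 libraries above every saline library. The count ratio of *Slc34a3* over *Slc34a1* was 1.44-fold higher with MCC950 (exact permutation test, adjusted p = 0.00932), with a median of 0.0111 against 0.00775 and overlapping ranges.

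Of the 2 carriers that move sodium with acid or base, 1 rose. *Slc4a4* encodes NBCe1, which returns bicarbonate to the blood. It held 120 to 306 CPM in MCC950 libraries, with a median of 197, and 64.0 to 193 in saline libraries, with a median of 105.3. The gene was 1.89-fold higher (log2 fold change 0.92, standard error 0.24, edgeR adjusted p = 0.0145), and 4 of 8 MCC950 libraries lay above every saline library. *Slc9a3* encodes NHE3, the sodium-proton exchanger of the brush border. It held 3.29 to 14.4 CPM, with a median of 6.71, against 4.94 to 10.6 with a median of 7.87. Its log2 fold change was -0.13 with a 95% interval of -0.64 to 0.38 (edgeR adjusted p = 0.756). The highest and the lowest of all 15 middle-aged libraries were both MCC950 libraries.

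The bile acid carrier *Slc10a2* had the largest fold change of the 10. Its MCC950 libraries held 1.79 to 4.64 CPM, with a median of 3.06 and up to 333 counts, and each lay above every saline library. The gene was 3.22-fold higher (log2 fold change 1.69, standard error 0.28, edgeR adjusted p = 0.00123). Its count ratio to *Slc9a3*, the other brush border carrier of low level, was 0.219 to 0.873 in MCC950 and 0.0814 to 0.202 in saline libraries, with no overlap (exact permutation test, p = 0.000311, adjusted p = 0.00186).

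**Figure D3:**
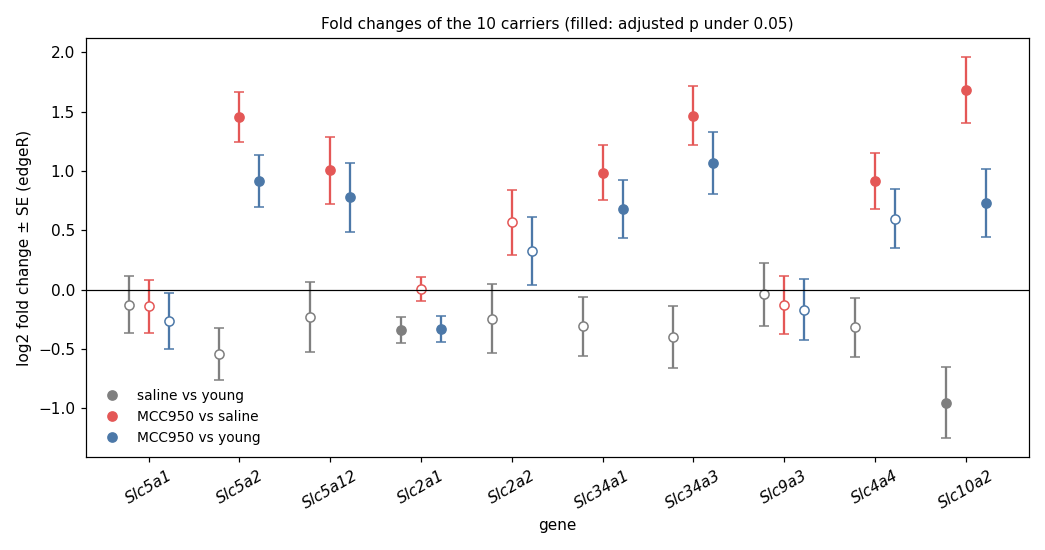
Log2 fold change ± standard error (y axis, edgeR) of each carrier (x axis) in saline against young, MCC950 against saline and MCC950 against young libraries, filled where the adjusted p was under 0.05. With MCC950 against saline 6 genes are filled and lie between 0.92 and 1.69, while *Slc5a1*, *Slc2a1* and *Slc9a3* lie between -0.14 and 0.01.

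With the mean log2 level of the 15 proximal tubule markers as a covariate, 3 of the 6 rises passed the test. This fit called 461 of 16377 genes tested higher and 353 lower, against 1957 and 796 without the covariate. *Slc5a2* kept a log2 fold change of 1.01 (edgeR adjusted p = 0.00462), *Slc34a3* of 0.98 (adjusted p = 0.0162) and *Slc10a2* of 1.33 (adjusted p = 0.0201). *Slc5a12*, *Slc34a1* and *Slc4a4* moved to 0.35, 0.27 and 0.22 and did not pass (edgeR adjusted p = 0.378, 0.138 and 0.257). *Slc5a1* was then lower with MCC950, at -0.75 (edgeR adjusted p = 0.0249), and *Slc9a3* had a value of -0.73 (adjusted p = 0.0850). The score itself was higher with MCC950, so the covariate and the treatment share part of their variation. Without the covariate, 4 of 8 early proximal tubule markers were higher and 0 lower, with a median log2 fold change of 0.64. Of 5 late ones 3 were higher and 0 lower, with a median of 1.54. In that fit 11.9% of all genes tested were higher and 4.86% lower. The other markers of each list did not pass. Of 9 markers of the loop of Henle, distal tubule and collecting duct 2 were lower, *Umod* and *Slc12a1* (log2 fold changes -0.56 and -0.88), and 0 were higher. The median of these 9 was -0.04, and *Slc12a3* (0.18) and *Calb1* (0.29) had the highest values. Podocyte markers were higher in 5 of 15 genes, 1 of 8 endothelial markers was lower, and 0 of 8 macrophage and 0 of 5 red blood cell markers were called, also at an unadjusted p under 0.05 and in DESeq2.

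**Figure D4:**
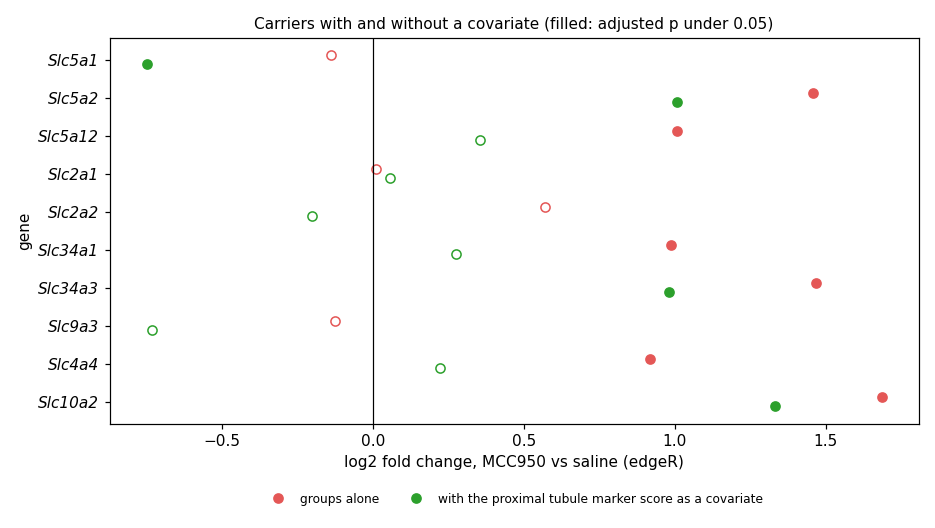
Log2 fold change with MCC950 against saline (x axis, edgeR) of each carrier (y axis), fitted with the groups alone and with the proximal tubule markers added as a covariate, filled where the adjusted p was under 0.05. With the covariate *Slc5a2*, *Slc34a3* and *Slc10a2* stay filled to the right of 0 and *Slc5a1* becomes filled to the left.

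The third comparison set the MCC950 libraries against the young ones. It shares its libraries with the comparisons above, so it adds no independent samples. Of the 10 carriers 5 were higher and 1 was lower at an adjusted p under 0.05 (edgeR), where 21.8% of all genes tested were higher and 16.5% lower. *Slc34a3* was 2.10-fold higher than in young libraries (log2 fold change 1.07, standard error 0.26, edgeR adjusted p = 0.00317) and *Slc5a2* 1.89-fold (0.92, standard error 0.22, adjusted p = 0.00268). For each of these genes 7 of 8 MCC950 libraries lay above every young library. All 10 carriers overlapped between these groups, where 3.28% of all genes were higher and 4.66% lower with no overlap. *Slc5a12* (log2 fold change 0.78, edgeR adjusted p = 0.0405), *Slc34a1* (0.68, adjusted p = 0.0327) and *Slc10a2* (0.73, adjusted p = 0.0488) passed too. Their calls were lost without any one of 12, 7 and 16 of the 21 libraries, with adjusted p-values of up to 0.103, 0.0977 and 0.140 in edgeR. *Slc2a1* was 1.26-fold lower, at -0.33 (edgeR adjusted p = 0.0206, and 0.0639 without young replicate 3). *Slc4a4* at 0.60 did not pass (edgeR adjusted p = 0.0611), but did without young replicate 1 (0.00688), saline replicate 5 (0.0420) or MCC950 replicate 7 (0.0303). *Slc2a2* (0.33), *Slc5a1* (-0.26) and *Slc9a3* (-0.17) did not pass either. With the proximal tubule markers as a covariate *Slc5a2* (0.50, edgeR adjusted p = 0.0363) and *Slc34a3* (0.60, adjusted p = 0.0443) were higher, and *Slc5a1* (-0.76, adjusted p = 0.00275) and *Slc9a3* (-0.62, adjusted p = 0.0420) were lower. In this fit 3456 of all 16377 genes tested were higher and 2624 lower. With the podocyte markers as a covariate 0 carriers passed in either direction in edgeR (before adjustment, 1 lower and 0 higher had p under 0.05), and *Slc34a1* was at -0.11 (adjusted p = 0.938). In this fit 19 of all 16377 genes tested were higher and 42 lower. Leaving out single libraries moved the number of higher carriers between 2 and 6, and it was 2 without young replicate 2, 3, 4 or 6 or MCC950 replicate 1 or 5, and 3 without saline replicate 2 or 6 or MCC950 replicate 2 or 3.

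Most carriers varied together to some degree from mouse to mouse over all 21 libraries, whether or not they rose with MCC950. After subtraction of group means, the Pearson correlation of log2 CPM was 0.93 between *Slc34a1* and *Slc4a4*, 0.92 between *Slc5a2* and *Slc34a3* and 0.90 between *Slc5a12* and *Slc4a4*. Of the carriers that did not pass the test, *Slc2a2* reached 0.91, *Slc5a1* 0.74 and *Slc9a3* 0.68 with *Slc4a4*. With *Slc34a3* these genes had lower values, of 0.61, 0.44 and 0.28. *Slc10a2*, which rose, followed less closely, with 0.38 to *Slc4a4*, 0.34 to *Slc34a1* and 0.27 to *Slc5a2*. *Slc2a1* stood apart, with values from -0.33 to 0.48 to the other 9 genes. These are descriptions over 21 libraries that share tissue composition and scaling. Young replicate 1 was the highest young library for 8 of the 10 carriers, and its proximal tubule markers summed to 8015 CPM, the highest of the young libraries.

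Likeness to the other genes tested was measured by Pearson's r of log2 CPM over the 21 libraries with group means left in, so differences between groups add to it. The genes most like *Slc5a2* were *Prodh2* (r = 0.966), an enzyme of hydroxyproline breakdown, and *Gatm* (0.956), the first enzyme of creatine synthesis. *Slc34a1* was most like *Slc22a18* (0.984) and *Pdzd3* (0.981), which encodes a PDZ scaffold protein. *Slc4a4* was most like *Tcn2* (0.974) and *Mgat3* (0.973), *Slc34a3* like *Sectm1b* (0.957) and *Prodh2* (0.956), and *Slc5a12* like *Nox4* (0.944) and the neutral amino acid carrier *Slc6a19* (0.942). *Slc2a2* was most like *Kcnj15* (0.939) and *Gm5424* (0.930), a pseudogene of *Ass1* whose reads cannot be told apart from those of its parent with certainty. The remaining carriers had no neighbour above 0.90: *Slc10a2* was most like *Usp24* (0.889) and *Cluh* (0.887), *Slc9a3* like *Eny2* (0.889) and *Kazn* (0.843), *Slc2a1* like *Gpx8* (0.882) and *Asb15* (0.879), and *Slc5a1* like *Nucks1* (0.851) and *Ccni* (0.839). After subtraction of group means the value was 0.919 for *Slc5a2* and *Prodh2* and 0.837 for *Slc5a2* and *Gatm*, and for *Slc10a2* it was 0.720 with *Usp24* and 0.683 with *Cluh*.

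The wider pathways were read from lists of related genes. Their counts stand beside 11.9% of all genes tested higher and 4.86% lower with MCC950, and 12.2% higher and 12.4% lower with age. Of 12 other sugar and lactate carriers, 3 were higher and 2 lower with MCC950 (edgeR adjusted p under 0.05), with a median log2 fold change of 0.38. The higher ones were the lactate carrier *Slc16a1* (log2 fold change 1.26, adjusted p = 0.000324), the mannose carrier *Slc5a9* (1.01, adjusted p = 0.00876) and the inositol carrier *Slc5a11* (0.89, adjusted p = 0.0154). The proton-inositol carrier *Slc2a13* was lower (-0.94, edgeR adjusted p = 0.00506), as was the urate carrier *Slc2a9* (-0.50). *Slc5a8*, the other sodium-lactate carrier of the tubule, had a value of 0.66 (edgeR adjusted p = 0.138). With age 1 of the 12 changed, *Slc16a1*, which was lower (-0.59, adjusted p = 0.0153).

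Of 7 other phosphate genes, *Pth1r*, the parathyroid hormone receptor, was higher with MCC950 (log2 fold change 0.67, edgeR adjusted p = 0.00843) and *Slc34a2*, which encodes NaPi-IIb, was lower from a low level (1.41 against 2.62 CPM, -0.90, adjusted p = 0.0280, and 0.0511 or 0.0513 without saline or MCC950 replicate 3). The widely expressed phosphate carriers *Slc20a1* (0.06) and *Slc20a2* (0.07) and the exporter *Xpr1* (0.24) did not pass. *Kl*, the co-receptor for FGF23, was lower with age (-0.69, edgeR adjusted p = 0.00645), at a mean of 279 CPM in saline against 449 in young libraries. With MCC950 its value was 0.33 (edgeR adjusted p = 0.171).

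Of 13 other genes of sodium, proton and bicarbonate handling, 4 were higher and 2 lower with MCC950 (11.9% and 4.86% of all genes tested) and 4 were lower with age (12.4%). Cytosolic carbonic anhydrase *Car2* was lower with age (log2 fold change -0.54, edgeR adjusted p = 0.00701) and higher with MCC950 (0.54, adjusted p = 0.00958). *Slc9a2*, another sodium-proton exchanger, was lower with age (-0.50) and higher with MCC950 (0.37, edgeR adjusted p = 0.0407), and *Car12* was lower with age (-0.72). *Slc9a4* was lower with age (-0.70, edgeR adjusted p = 0.00534) and with MCC950 (-0.51, adjusted p = 0.0349), comparisons that share the saline libraries, and the second call was lost without any one of 8 libraries. On the bicarbonate side, *Slc4a5* was lower with MCC950 (-1.04, edgeR adjusted p = 0.00288). The sodium pump subunit *Atp1b1* (-0.10) did not pass with MCC950, while the pump regulator *Fxyd2* was higher (0.48, adjusted p = 0.0148) and the exchanger *Slc9a8* was too (0.39).

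Of 6 other bile acid genes 5 could be tested, and *Fabp6* had no counts. *Slc51b*, a subunit of the basolateral bile acid exporter, was higher with MCC950 (log2 fold change 0.91, edgeR adjusted p = 0.0478), while the other subunit *Slc51a* had a value of 0.16 (adjusted p = 0.837). The call of *Slc51b* was lost without any one of 16 of the 21 libraries (adjusted p of up to 0.108). The bile acid receptor *Nr1h4* had a value of 0.78 (edgeR adjusted p = 0.0607), and *Abcc3* was higher with age (1.00, adjusted p = 0.0174).

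Of 4 scaffolds and accessory proteins 3 were higher with MCC950: *Pdzk1* (log2 fold change 1.17, edgeR adjusted p = 0.00183), whose protein binds NaPi-IIa, *Pdzk1ip1* (0.71, adjusted p = 0.0158), a partner of SGLT2, and *Slc9a3r1* (0.55, adjusted p = 0.00602), which encodes NHERF1. *Slc9a3r2*, which encodes NHERF2 and is also expressed in podocytes, was lower with age (-1.27, edgeR adjusted p = 1.98e-05). Of 3 transcription factors of proximal tubule genes, *Hnf4a* was higher with MCC950, at a mean of 208 CPM against 99.5 (1.06, edgeR adjusted p = 0.00300). With age 0 of the 3 passed in edgeR, at an unadjusted p under 0.05 or in DESeq2, with log2 fold changes from -0.42 to -0.10. With the proximal tubule markers as a covariate *Slc5a9*, *Slc5a11*, *Pth1r*, *Car2*, *Slc9a4*, *Fxyd2*, *Slc51b*, *Pdzk1ip1* and *Slc9a3r1* no longer passed with MCC950. *Slc16a1* (log2 fold change 1.21), *Pdzk1* (0.51) and *Hnf4a* (0.47) still passed as higher in this fit. *Slc2a13* (-1.12), *Slc34a2* (-1.30) and *Slc4a5* (-1.41) still passed as lower. Of all 16377 genes tested, 461 were higher and 353 lower in it. With the podocyte markers as a covariate, a list of which 14 of 15 genes were lower with age, all 8 pathway genes called with age no longer passed in edgeR. In this fit 6 of 16377 genes tested were higher and 0 lower with age, so the loss is not particular to these 8. *Slc9a3r2* moved from -1.27 to -0.29 (adjusted p = 0.603), *Kl* from -0.69 to -0.27 (adjusted p = 0.738), *Slc9a4* to -0.17 and *Car12* to -0.38. *Slc16a1* (-0.92), *Car2* (-0.80), *Slc9a2* (-0.86) and *Abcc3* (1.61) had values farther from 0 than before and adjusted p-values from 0.288 to 0.365.

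**Figure D5:**
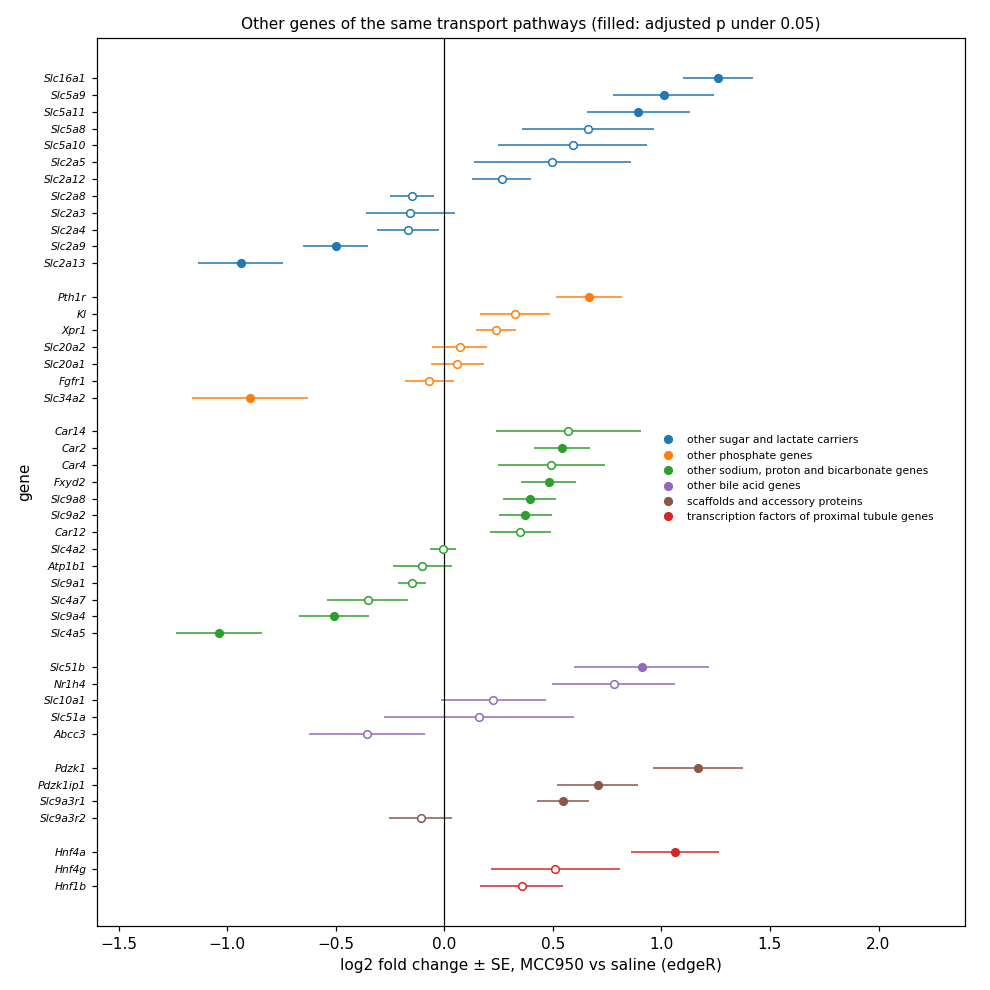
Log2 fold change ± standard error with MCC950 against saline (x axis, edgeR) of the 44 other transport pathway genes that could be tested (y axis), coloured by list and filled where the adjusted p was under 0.05. *Slc16a1*, *Slc5a9*, *Pdzk1* and *Hnf4a* lie above 1 and *Slc4a5* below -1.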

How the data were processed

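Bulk mRNA sequencing of podocyte fractions (nephrin antibodies, magnetic beads) from single mice was used, 21 libraries in 3 groups by their labels. Reads were trimmed by the authors with Trim Galore, aligned to mm10 (GRCm38) with Bowtie2, which does not split reads over introns, and deposited as raw featureCounts counts per Entrez gene. The annotation release and the strand and multi-mapping settings are not given in the sources used here. The study's text gives 5 young mice, and all 6 labelled libraries were used. The deposited table of DESeq2-normalized values was not used.

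Gene names came from RefSeq for 25275 of 27179 genes and from GENCODE for 18. Counts were tested with edgeR 4.0.16 (R 4.3.3; TMM, filterByExpr by group, quasi-likelihood F test, Benjamini-Hochberg over 16377 genes), with all 21 libraries in 1 fit and mitochondrial genes kept. Standard errors are the log2 fold change over the root of F. Count ratios (0.5 added to each count) were compared by exact permutation tests in scipy 1.17.1. Marker scores were means of log2 CPM (prior count 2). No libraries were duplicates. Libraries of equal number were not treated as pairs, since the numbers are not stated to mark a shared cage or day. Correlations of their deviations ran from -0.14 to 0.40, which cannot exclude a shared cage or day. DESeq2 1.42.0 and 9 other settings were planned as alternatives, 2 were added after seeing the data, and each library was left out in turn. The code was tested on simulated counts. The p-values weigh differences between groups against the spread between mice. The lowest library held 5804891 counts outside mitochondrial genes.

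The carriers, the gene lists and the marker lists were chosen with earlier results of these data known. The text names the 10 carriers, at most 4 called genes with the largest changes of each pathway list and comparison, up to 3 markers of the highest level per list, and the 2 genes most like each carrier over 21 libraries. *Slc2a9*, *Slc9a8* and genes with values given as not called were named after their values were seen, as were *Pck1*, *Lrp2*, *Miox* and *Slc12a1*. The other genes of the pathway lists are described without 2 that are not reported here.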

Additional observations from a re-analysis of the deposited data

Results flagged for a closer look

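In 42 sets of values (each carrier's level and each count ratio in each group), 2 held a library whose gap to the next was too large a share of the group's range by Dixon's 95% critical value, where chance gives about 5%. *Slc9a3* was at 14.4 CPM in MCC950 replicate 2, the highest of its group, and without this library the log2 fold change against young libraries was -0.39. *Slc4a4* was at 252 CPM in young replicate 1, the highest of the young libraries, and this library also had the highest sum of proximal tubule markers among them, at 8015 CPM. The part of that in the *Slc4a4* value was not tested.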

How the results depend on the processing

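With MCC950 against saline, 6 or 7 carriers were higher under 11 of the 12 other settings. With the proximal tubule markers as a covariate 3 were higher and 1 lower, and against young libraries 2 were higher and 2 lower. Of all 16377 genes tested, this fit called 461 higher and 353 lower against saline, and 3456 and 2624 against young libraries. With the podocyte markers as a covariate 0 carriers were lower with age (8 at an unadjusted p under 0.05), and 0 were higher and 0 lower with MCC950 against young (0 and 1 unadjusted), in edgeR. Of all 16377 genes tested, 6 were higher and 0 lower with age in this fit. With MCC950 against young, 19 were higher and 42 lower, so these losses are not particular to the carriers. Thinned to equal depth, 1 carrier was lower with age. Leaving out 1 library gave 0 to 3 lower carriers with age, and 2 to 6 higher and 0 to 1 lower carriers with MCC950 against young. The cause was not tested. Low counts limit the precision for *Slc10a2*, with as few as 19 in a library.

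Signs turned for these values, none of which passed under the setting named. With MCC950 against saline *Slc2a1* was at 0.0076 and moved to -0.012 with DESeq2, -0.012 with RLE scaling, -0.0019 with at least 10 counts in every library, -0.012 with the 2 groups alone, -0.012 with the replicate block, -0.069 with the podocyte markers, -0.076 thinned, -0.00058 with red blood cell markers and -0.046 without saline replicate 5 and MCC950 replicates 6 and 7. The last 2 settings were chosen after seeing the data. With the proximal tubule markers *Slc9a3* was at 0.11 with age, *Slc2a2* at -0.20 with MCC950 against saline and -0.31 against young, and *Slc4a4* at -0.0025 against young. With the podocyte markers *Slc5a1* was at 0.20 with MCC950 against saline, and against young *Slc2a2* was at -0.41, *Slc34a1*, called as higher without this covariate, was at -0.11 and *Slc4a4* at -0.21.

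The replicate numbers are not stated to mark pairs. With the replicate block *Slc2a2* passed with MCC950 against saline (0.66, edgeR adjusted p = 0.0322) and *Slc4a4* against young (0.75, adjusted p = 0.00174), *Slc9a4* did not (-0.49, adjusted p = 0.0593), and *Slc9a3* was at 0.11 with age.

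Without 1 library each, values with age ranged from -0.25 to 0.013 for *Slc5a1*, -0.46 to 0.028 for *Slc2a2* and -0.17 to 0.17 for *Slc9a3*, those of *Slc2a1* with MCC950 against saline from -0.043 to 0.054 and those of *Slc9a3* against young from -0.39 to 0.042. Log2 ratios ranged from 0.38 to 0.60 for *Slc5a1* over *Slc5a2* and -0.28 to 0.12 for *Slc2a1* over *Slc2a2* with age, from 0.24 to 0.49 for *Slc34a3* over *Slc34a1* and 0.81 to 1.19 for *Slc10a2* over *Slc9a3* with MCC950 against young, and from -0.82 to -0.43 for *Slc2a1* over *Slc2a2* with MCC950 against saline. Of these, *Slc5a1* over *Slc5a2* passed without young replicate 2, *Slc34a3* over *Slc34a1* without young replicate 4, *Slc10a2* over *Slc9a3* without young replicate 4 or MCC950 replicate 2, and *Slc2a1* over *Slc2a2* with MCC950 against saline without saline replicate 5. The other ratio calls were the same under both settings tried and without each library.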
